A study of Gallus gallus with 3 samples.

Results

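MET, HGF, CXCR4, CXCL12, LBX2 and TCF15 are 6 genes linked to the muscle precursors that leave the somites and enter the limb. HGF and CXCL12 are ligands made in the limb, and LBX2 is linked through its family member LBX1. All 6 were among the 24356 genes listed for each library. MET, HGF, CXCR4, LBX2 and TCF15 were found by symbol (5 genes) and CXCL12 by its Ensembl identifier, ENSGALG00000041346. They were followed over stages in cells with at least 1 UMI of PAX7, MYOD1, MYOG, PRRX1 or CDH5.

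Forelimbs of wild type chicken embryos were dissected at embryonic day 4 (E4), 6 (E6) and 10 (E10), dissociated with collagenase and profiled by droplet-based single-cell RNA-sequencing. Here a barcode names the droplet, and a unique molecular identifier (UMI) on each captured transcript lets copies made by PCR be counted as 1. Limbs of 2 embryos at E4, 3 at E6 and 3 at E10 were pooled, which gave 1 library per stage. Multinucleated myotubes were lost in the isolation, so the muscle cells are mononucleated progenitors and myoblasts.

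HGF is a secreted factor made by limb mesenchyme, and MET is its receptor on the precursors, which need the signal to detach from the somite. CXCL12 is a chemokine of the limb bud and CXCR4 its receptor, a pair that guides migrating precursors. LBX2 belongs to the ladybird homeobox family, whose member LBX1 marks migrating limb precursors in mouse and chick, and TCF15 (paraxis) is a bHLH factor of the somite epithelium. PAX7 marks muscle progenitors, MYOD1 and MYOG mark committed and differentiating myoblasts, PRRX1 marks limb mesenchyme and CDH5 marks endothelium.

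Barcodes that reached 1000, 700 and 450 UMIs at the successive stages were taken as cells, which gave 5235, 4237 and 27361 cells with medians of 3645, 2216 and 1081 UMIs. The PAX7+ cells numbered 45, 201 and 2300, the MYOD1+ cells 10, 230 and 3394, the MYOG+ cells 0, 54 and 1118, the PRRX1+ cells 4565, 2400 and 6478, and the CDH5+ cells 21, 16 and 175. A list of 11 muscle genes summed to 350, 1226 and 891 UMIs per 1000000 UMIs (CPM) in PAX7+ cells, against 35.5, 245 and 552 CPM in all cells. The study states that some neural crest cells of chicken limbs also express PAX7. A list of 5 neural crest genes summed to 9.34, 30.3 and 9.69 CPM in PAX7+ cells, against 2.31, 11.5 and 27.4 CPM in all cells. A list of 9 endothelial genes summed to 2523, 2618 and 2465 CPM in CDH5+ cells, against 115, 82.2 and 91.3 CPM in all cells, with TIE1 at 0 at E6. In PRRX1+ cells, which were 87.2%, 56.6% and 23.7% of the cells, a connective tissue list set them little apart at E4 and E6. It summed to 2539, 3851 and 23977 CPM, against 2420, 3948 and 16522 CPM in all cells, with 0 genes over 2 times. The markers of the E4 MYOD1+ cells were mixed. Of these 10 cells, 9 also held PRRX1, as did 87.2% of all E4 cells. The muscle list was at 105 CPM, above the 35.5 CPM of all E4 cells, but only 2 of its 11 genes had a UMI. The connective tissue list (10 genes) was at 2396 CPM, beside 2420 CPM in all E4 cells. The E4 and E6, E4 and E10, and E6 and E10 libraries shared 13, 33 and 35 cell barcodes. Random draws from the listed barcodes would give 3.26, 21.1 and 17.1, and the source of the excess was not tested. In the 10% windows below and above each minimum, TCF15 was at 45.8 and 0 CPM at E4, 27.4 and 26.3 CPM at E6, and 17.8 and 6.69 CPM in the E10 library. Its UMIs lay in 1 of 23 and 0 of 21 barcodes at E4, and in 8 of 1056 and 3 of 950 at E10. At E6 they lay in 3 of 165 and 3 of 155 barcodes. CXCL12 was at 0 and 0, 91.4 and 61.4, and 151 and 183 CPM.

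With 1 library per stage, no test was possible, and a difference between stages cannot be told apart from a difference between libraries. Intervals in brackets are exact 95% intervals (Clopper-Pearson for shares, Poisson for levels, conditional binomial for ratios) and cover counting error only. Levels are UMIs of the gene summed over the cells of a group, per 1000000 UMIs of that group (CPM). They are not affected by depth in the way that shares of cells are.

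The ligand HGF lay in PRRX1+ cells at E4. It was found in 427 of 4565 PRRX1+ cells (9.35%, 8.52 to 10.2) with 500 UMIs, a level of 27.1 CPM (24.8 to 29.6). At E6 it was found in 11 of 2400 PRRX1+ cells, 1.70 CPM (0.847 to 3.04), and at E10 in 52 of 6478, 6.41 CPM (4.86 to 8.31). The E6 level was 16.0-fold below that of E4 (8.84 to 32.2), and the E10 level was 3.78-fold above that of E6 (1.96 to 7.99). In these PRRX1+ cells, 5.14% of all genes were at least 2-fold lower at E6 than at E4 and 10.9% at least 2-fold higher at E10 than at E6.

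PAX7+ cells held no HGF UMI at E4 (0 of 45 cells, which allows a share of cells with a UMI of up to 6.67%, the limit of 3 counts) or E6 (0 of 201, up to 1.49%) and 3 UMIs in 3 of 2300 cells at E10. In all, 94.7% of the HGF UMIs of the E4 cells lay in PRRX1+ cells, which were 87.2% of these cells and held 18459607 of their 20792790 UMIs. No HGF UMI fell in the 54 cells with a PAX7, MYOD1 or MYOG UMI at E4 or in the 355 such cells at E6. The 12 PTPRC+ cells of E4 (PTPRC is a leukocyte marker) were at 59.2 CPM (12.2 to 173), on 3 UMIs in 2 cells, and the level over all E6 cells was 1.75 CPM. The E4 cells with HGF differed most from the other E4 cells in PHACTR1 (53.0 against 19.0 CPM), the limb mesenchyme homeobox gene MSX1 (249 against 89.6 CPM), TFAP2A, SALL1 and GBX2. At E10, the HGF+ cells instead led in ENSGALG00000043610, the vessel factor angiopoietin-2 (394 against 87.8 CPM), CXCL12 (472 against 119 CPM), GSTA2 and CRHBP.

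The other ligand, CXCL12, was higher at each later stage in PRRX1+ cells, and also over all cells. Its level rose from 17.7 CPM at E4 (15.8 to 19.7) to 57.1 CPM at E6 (51.4 to 63.2), and was 109.7 CPM in E10 cells (103 to 117). It was 3.22-fold higher at E6 than at E4 (2.77 to 3.75) and 1.92-fold higher at E10 than at E6 (1.70 to 2.17), and the background of genes at least 2-fold higher at E6 was 11.3%. The share of PRRX1+ cells with a UMI was 6.09% at E4 and 10.8% at both E6 and E10. With each cell thinned to 450 UMIs, it was 0.701%, 3.08% and 5.36%, and the shares rose from stage to stage once depth was made equal. Among PRRX1+ cells, HGF was thus highest at E4 and CXCL12 at E10.

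At E10, 70.4% of the 2911 CXCL12+ cells had none of the 5 group markers, beside 57.8% of all E10 cells. The E10 level was 166 CPM in the unmarked cells and 121 CPM in all cells. Unmarked cells were above PRRX1+ cells at E4 (41.1 CPM, 32.9 to 50.7) and E6 (118 CPM, 106 to 131) as well. Over all cells, the level was 19.96 CPM at E4 and 71.1 CPM at E6, so the rise was not limited to PRRX1+ cells. In the E10 library, CXCL12 was also found in 27 of 289 SOX10+ cells (83.8 CPM, 56.9 to 119) and in 17 of 188 EPCAM+ cells (59.5 CPM, 36.3 to 91.9). PAX7+ cells were lower than PRRX1+ cells at E6 and E10, at 7.89 and 30.7 CPM. At E4 they were at 9.34 CPM (1.13 to 33.7) on 2 UMIs, and a difference from PRRX1+ cells was not resolved. The 450 erythroid cells of E10, taken as cells with at least 20% haemoglobin UMIs, held CXCL12 in 6 cells (1.33%, 0.491 to 2.88; median 1366.5 UMIs), against 3.83% (3.08 to 4.69; median 1432.5 UMIs) of PAX7+ cells. The genes that led in CXCL12+ cells differed by stage: CYTL1, RSPO3, KCNK1, HOXD10 and FZD4 at E4, CYP1B1, RDH10, EGFL6, ENSGALG00000031398 and CRHBP at E6, and CA4, TAC1, ENSGALG00000024470, ENSGALG00000012021 and ACE at E10. RSPO3 is a Wnt agonist and FZD4 a Wnt receptor. RDH10 is a retinol dehydrogenase of retinoic acid synthesis.

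**Figure D1:**
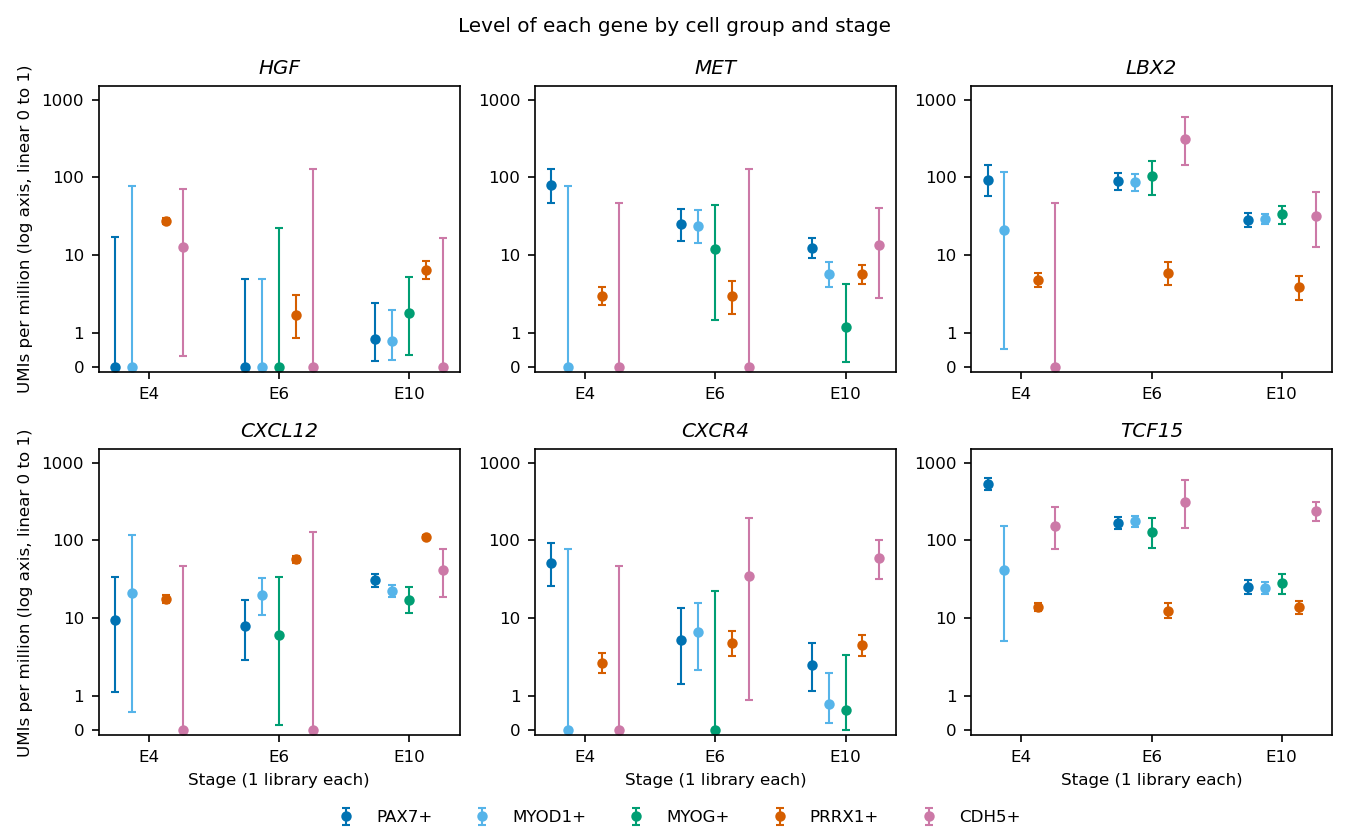
Level of each gene (CPM, log axis, linear between 0 and 1) at E4, E6 and E10 in the PAX7+, MYOD1+, MYOG+, PRRX1+ and CDH5+ cells of 1 library per stage; bars are exact 95% Poisson intervals, and there were no MYOG+ cells at E4. HGF is at 27.1 CPM in PRRX1+ cells at E4 and at 1.70 CPM at E6, while TCF15 in PAX7+ cells goes from 537 to 25.5 CPM between E4 and E10.

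In PAX7+ cells, the receptor MET was highest at E4. It was found in 11 of 45 cells with 17 UMIs, a level of 79.4 CPM (46.2 to 127), then in 16 of 201 cells at E6, 25.0 CPM (15.05 to 39.03), and in 42 of 2300 cells at E10, 12.5 CPM (9.09 to 16.7). The E6 level was 3.18-fold below that of E4 (1.55 to 6.45), and the E10 level was 2.01-fold below that of E6 (1.11 to 3.50). In PRRX1+ cells MET was at 2.98, 2.93 and 5.74 CPM, and the E10 level was 1.96-fold above that of E6 (1.14 to 3.51). At E4, MET was also found in EPCAM+ ectodermal cells (14 of 118 cells, 34.3 CPM, 19.997 to 54.96) and in cells with no group marker (14.2 CPM, 9.56 to 20.2). The EPCAM+ level was below that of PAX7+ cells. Their separate intervals overlapped, which does not show that the levels were alike, and no ratio of them was taken.

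CXCR4 was also highest at E4 in PAX7+ cells. It was found in 8 of 45 cells at E4 (11 UMIs, 51.4 CPM, 25.6 to 91.9), 4 of 201 at E6 (5.26 CPM, 1.43 to 13.5) and 9 of 2300 at E10 (2.49 CPM, 1.14 to 4.73). The E6 level was 9.76-fold below that of E4 (2.89 to 42.0). At E6 and E10, the intervals of PAX7+ cells overlapped those of PRRX1+ cells, which were at 4.78 CPM (3.25 to 6.79) and 4.50 CPM (3.22 to 6.13). At E10, the share of PAX7+ cells with CXCR4 (0.391%, 0.179 to 0.742) also overlapped that of erythroid cells (1 of 450, 0.222%, 0.00563 to 1.23). It was not told apart from background, but the erythroid interval rests on 1 cell and is too wide to decide this. At E10, 67.7% of the CXCR4 UMIs lay in cells with no group marker (7.49 CPM) and 21.2% in PRRX1+ cells. The level was higher in PTPRC+ cells (7 of 78 cells, 93.5 CPM, 42.8 to 177) and CDH5+ cells (10 of 175 cells, 59.2 CPM, 31.5 to 101). At E4, CDH5+ cells held 0 CXCR4 UMIs (a limit of 38.0 CPM) and PTPRC+ cells 1, too few to show a change there.

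PAX7+ cells and PRRX1+ cells were compared within each library, with the 12, 58 and 294 cells that held both markers left out, and a gene was counted as past the fold at 4-fold. At E4, MET, CXCR4, LBX2 and TCF15 were at least 4-fold higher in PAX7+ cells, 4 of 6, beside 3.63% of the 10871 genes with at least 20 UMIs. MET had a log2 ratio of 4.92 (3.92 to 5.82), CXCR4 of 4.37 (3.08 to 5.47), LBX2 of 4.62 (3.80 to 5.37) and TCF15 of 5.52 (5.16 to 5.88). HGF had 0 UMIs in the 33 PAX7+ cells. It was 1.40-fold lower at a floor of 3 counts and at least 1.13-fold lower by its exact interval. Neither HGF nor CXCL12, with 1 UMI there (log2 ratio -1.45, -6.76 to 1.03), was past 4-fold lower, beside 1.32% of all genes.

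At E6, MET, LBX2 and TCF15 were past 4-fold (log2 ratios of 3.61, 4.75 and 4.64), 3 of 6 beside 1.47% of all genes, and CXCL12 was lower (-3.32, -5.61 to -1.76), beside 3.43%. CXCR4 was not resolved, with 1 UMI in PAX7+ cells (-1.20, -6.55 to 1.40). At E10, LBX2 was the only one of the 6 higher (3.77, 3.00 to 4.61), beside 1.46%. MET (1.23, 0.55 to 1.90) and TCF15 (0.99, 0.56 to 1.42) were above PRRX1+ cells by less than 4-fold. HGF was lower (-3.36, -6.44 to -1.44), beside 8.03%, but with 2 UMIs in PAX7+ cells, and it did not reach 4-fold with a minimum of 2000 UMIs per cell (-0.59, 1 against 3 UMIs). CXCL12 was at -1.81 (-2.12 to -1.52) and passed 4-fold when cells were thinned to 450 UMIs (-2.50).

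**Figure D2:**
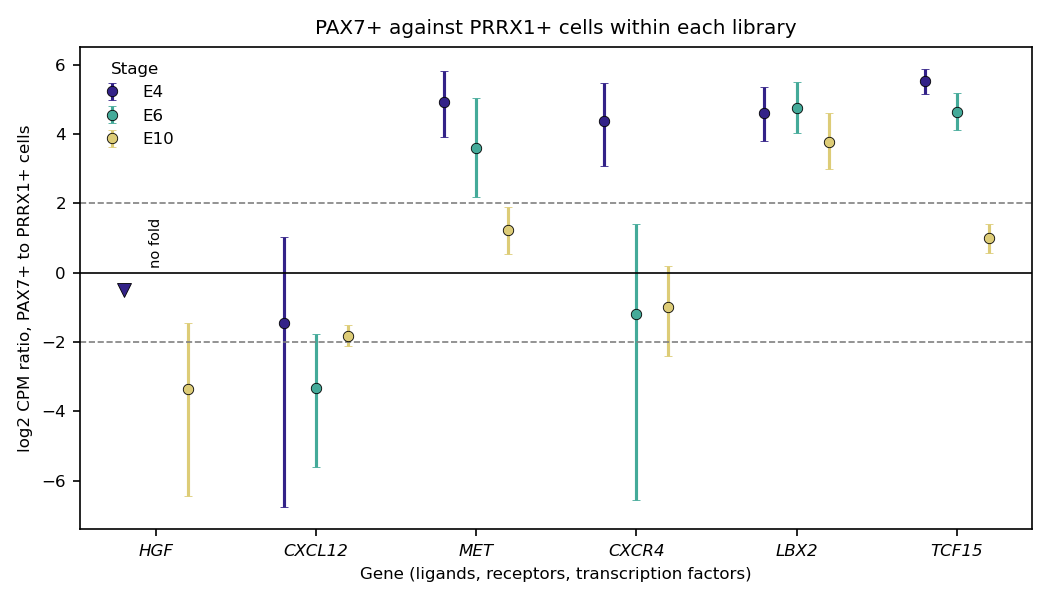
log2 ratio of the level in PAX7+ cells to that in PRRX1+ cells for the 2 ligands, 2 receptors and 2 transcription factors at each stage, with exact 95% intervals; dashed lines mark 4-fold, the triangle is a bound from a count of 0, and no fold was given for HGF at E6. LBX2 stays above 4-fold at all 3 stages, whereas CXCR4 is above it at E4 alone.

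TCF15 was the most abundant of the 6 in E4 PAX7+ cells. It was found in 37 of 45 cells (82.2%, 67.9 to 92.0) with 115 UMIs, 537 CPM (443 to 645), in 83 of 201 cells at E6 (41.3%), 168 CPM (140 to 200), and in 88 of 2300 cells at E10 (3.83%), 25.5 CPM (20.5 to 31.3). The E4 share was 4.45% in PRRX1+ cells (median 3717 UMIs, against 4643 in PAX7+ cells). In PAX7+ cells, the level fell 3.19-fold from E4 to E6 (2.46 to 4.14) and 6.61-fold from E6 to E10 (5.01 to 8.73). With E4 and E6 cells thinned to 1000 UMIs, TCF15 remained in 22 of 45 E4 cells (48.9%) and in 32 of 200 E6 cells (16.0%), with 1 E6 cell too shallow. In these thinned cells, CXCR4 was found in 4 of 45 and 0 of 200 cells, LBX2 in 2 and 21, and MET in 1 and 3, too few for MET to show a change. Thinned to 450 UMIs, 4 of 45 and 16 of 201 cells held TCF15. This thinned count no longer showed its E4 to E6 difference (log2 ratio -0.16 against -1.67). With each cell weighted equally, the log2 ratio was -1.68.

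LBX2 did not follow TCF15 between E4 and E6. In PAX7+ cells it was at 93.4 CPM at E4 (57.1 to 144; 15 of 45 cells) and 89.4 CPM at E6 (69.5 to 113; 52 of 201 cells). By E10 it was at 28.3 CPM (23.0 to 34.3; 96 of 2300 cells). The log2 ratio of E6 to E4 was -0.06 (-0.80 to 0.74), and the level at E10 was 3.17-fold below that at E6 (2.29 to 4.34). PRRX1+ cells were at 4.82, 5.86 and 3.83 CPM. LBX1 had no UMI in either group at E4, 1 UMI in PRRX1+ cells at E6, and 5 UMIs in PAX7+ and 1 UMI in PRRX1+ cells at E10 (log2 ratio 3.77, 0.61 to 9.33). Whether reads of the paralogues were split in counting was not tested.

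Over the 6 genes, the PAX7+ cells of E6 were at least 2-fold below those of E4 for MET, CXCR4 and TCF15, beside 4.86% of all genes with at least 20 UMIs. CXCR4 rested on 15 UMIs, under that minimum, and without the minimum the background was 11%. From E6 to E10, MET, CXCR4, LBX2 and TCF15 were at least 2-fold lower, beside 5.76% of genes with at least 20 UMIs. CXCR4 had 13 UMIs and an interval that included no change (-2.92 to 1.07 on the log2 scale), and without the minimum the background was 12.8%. With median-of-ratios scaling, MET (-0.88) and CXCR4 (-0.96) were less than 2-fold lower. CXCL12 was the only gene of the 6 that was higher, by 3.90-fold (1.73 to 10.8), beside 7.6% of all genes. Over genes with at least 20 UMIs in each of the 2 stages, the median log2 ratio was -0.18 from E4 to E6 (1879 genes) and -0.12 from E6 to E10 (4935 genes). Of the 4 genes that were high in E4 PAX7+ cells, CXCR4, MET and TCF15 were thus lower by E6 at full depth, and LBX2 was lower at E10, with no difference resolved at E6.

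**Figure D3:**
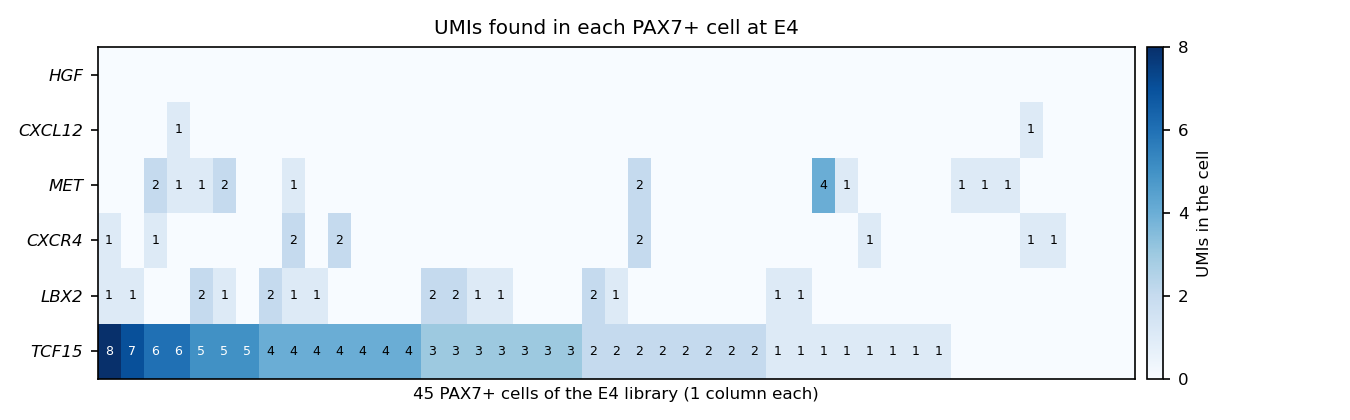
UMIs of each gene in each of the 45 PAX7+ cells at E4 (1 column per cell, ordered by TCF15; the number and the shade give the UMIs, from 0 to 8). TCF15 is found in 37 cells, LBX2 in 15, MET in 11, CXCR4 in 8, CXCL12 in 2 and HGF in none.

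Within the E4 PAX7+ cells, the 4 genes were spread over cells. No gene of MET, CXCR4, LBX2 and TCF15 was found in 3 cells, 1 in 20 cells, 2 in 16, 3 in 5 and all 4 in 1 cell. MET had at most 4 UMIs in a cell, and without that cell its log2 ratio to PRRX1+ cells was 4.41. All 15 LBX2+ cells also held TCF15, where the product of the shares gives 12.3 cells. MET and CXCR4 were found together in 3 cells (product 1.96), and MET and LBX2 in 3 cells (product 3.67). At E6, LBX2 and TCF15 were found together in 23 PAX7+ cells (product 21.5), and MET and LBX2 in 3 (product 4.14). At E10, no PAX7+ cell held MET with LBX2 or with TCF15, where the products give 1.75 and 1.61 cells. These counts are low, and they depend on the depth of the cells.

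Cells with several TCF15 UMIs at E4 did not all hold a PAX7 UMI. Of the 45 E4 cells with at least 3 UMIs of TCF15, 21 were PAX7+, 1 was CDH5+, 7 held PRRX1 and none of the other 4 markers, and 16 held no group marker. Of the 16 unmarked cells, 5 held MET, 5 CXCR4 and 8 LBX2, beside 5, 4 and 11 of the 21 PAX7+ cells. Of the 7 cells with PRRX1, 3 held MET, 0 CXCR4 and 1 LBX2. The BMP antagonist gene CHRDL1 was found in 10 of the 16, in 12 of the 21 and in 4 of the 7. In all, 22.7% of the TCF15 UMIs, 17.3% of the MET UMIs, 12.7% of the LBX2 UMIs and 11.96% of the CXCR4 UMIs of the E4 cells lay in PAX7+ cells, which were 0.860% of the cells. PAX7+ cells carried 1 to 4 PAX7 UMIs at E4. The TCF15 minimum of 3 UMIs was chosen after its values had been seen, and whether the cells without PAX7 are muscle precursors was not tested.

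Genes that led in the cells with each member were read without the group markers. In E4, TCF15+ cells led in PAX7 (38.3 against 0.464 CPM), the matrix gene TNC (39.7 against 1.14 CPM), the Notch modifier LFNG, CHRDL1 and LBX2. LBX2+ cells led in CHRDL1 (207 against 18.1 CPM), TCF15 (209 against 18.6 CPM), MYC, HOXA11 and ENSGALG00000011511. MET+ cells led in COL14A1 (132 against 6.42 CPM), PDGFA (423 against 25.1 CPM), CXCL14, CHRDL1 and TCF15. Of these 74 MET+ cells, 45 were PRRX1+, 14 EPCAM+ and 11 PAX7+, and 21 held no group marker, so the list mixes kinds of cells. CXCL14 had 0 UMIs in the 33 E4 PAX7+ cells without PRRX1. CXCR4+ cells led in ENSGALG00000010722, of which 119 of 120 UMIs came from 1 cell, then MYC, CHRDL1, TCF15 and PDGFA. TCF15 and CHRDL1 were thus among the 5 leading genes for each of MET, CXCR4 and LBX2.

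At E4, 1.03% of the cells had a PAX7, MYOD1 or MYOG UMI, and these cells were 14.9% of the MET+ cells, 11.0% of the LBX2+ cells, 12.3% of the TCF15+ cells and 8 of the 80 CXCR4+ cells. PRRX1+ cells were 60.8%, 62.5%, 65.7% and 57.5% of them, in that order, beside 87.2% of all E4 cells.

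Other genes led at E6. Among the 5 leading genes of LBX2+ cells were the myogenic factor MYF6 (131 against 10.7 CPM), FGFR4, TCF15 and MYF5, and TCF15+ cells led in MYF6, RAPSN, LBX2, FGFR4 and MYOD1 (409 against 45.6 CPM). Those of MET+ cells included PDGFA, FGFR4, ENSGALG00000027887 and MYOD1. CXCR4+ cells led in none of these but in TGFB2, CD99, HIST1H103, LSP1 and LDHA, all below 3-fold. Of the E6 cells, 8.38% had a PAX7, MYOD1 or MYOG UMI, and these cells were 63.2% of the LBX2+ cells, 60.0% of the TCF15+ cells, 53.3% of the MET+ cells and 13.2% of the CXCR4+ cells.

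At E10, the leading genes of LBX2+ cells included MYOG (178 against 49.98 CPM), ENSGALG00000030587, MYOD1 and PENK. TCF15+ cells led in CDH5 (146 against 9.44 CPM), RAMP2, LMO2, RGS4 and PODXL. MET+ cells led in CD34 (279 against 87.7 CPM), PAX7 (267 against 93.7 CPM), RF00100, ENSGALG00000011687 and NOV. CXCR4+ cells led in ENSGALG00000054048, TMEM158, RASSF2, RF00100 and HTRA1. Cells with a member UMI were deeper than the others for most members (at E10, medians of 1562 against 1077 UMIs for LBX2), and its part in these lists was not tested.

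The committed myoblast groups were read at E6 and E10. At E6, MYOD1+ cells were at 23.8 CPM for MET, 87.3 CPM for LBX2 and 176 CPM for TCF15, and MYOG+ cells at 12.1, 103 and 127 CPM. Their intervals overlapped those of PAX7+ cells for all 3 genes. The groups shared cells, since 82 of the 201 PAX7+ cells of E6 were also MYOD1+ and 9 were MYOG+. These intervals thus do not compare separate cells. At E10, MYOD1+ cells were at 5.77 CPM for MET (3.89 to 8.24), 29.2 CPM for LBX2 and 24.6 CPM for TCF15, and MYOG+ cells at 1.19 CPM for MET (0.144 to 4.30), 33.4 CPM for LBX2 and 28.0 CPM for TCF15.

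Since 607 of the 2300 PAX7+ cells of E10 were also MYOD1+, the cells were also split into groups without overlap. MET was at 11.7 CPM in the 1671 cells with PAX7 alone (7.85 to 16.8), 15.8 CPM in the 570 cells with PAX7 and MYOD1 (9.04 to 25.7), 4.26 CPM in the 2133 cells with MYOD1 alone (2.27 to 7.28) and 1.19 CPM in the 1118 MYOG+ cells. It was 9.83-fold higher in PAX7 cells without MYOD1 or MYOG than in MYOG+ cells (2.49 to 85.1; 29 against 2 UMIs). MET was the only member of the 6 with at least 20 UMIs past 4-fold, beside 2.28% of all genes. LBX2 was at 22.6 and 33.4 CPM, a log2 ratio of -0.56 (-1.12 to 0.00), and TCF15 at 23.4 and 28.0 CPM. CXCR4 was at 3.23 and 0.596 CPM on 8 and 1 UMIs. At E6, MET was at 21.0 CPM in cells with PAX7 alone and 12.1 CPM in MYOG+ cells, a log2 ratio of 0.79 whose interval included 0 (-1.48 to 4.04), beside 3.16% of all genes at least 4-fold higher in the former. At E10, MET was thus lower in MYOG+ cells than in cells with PAX7 alone, whereas the levels of LBX2 and TCF15 were not.

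**Figure D4:**
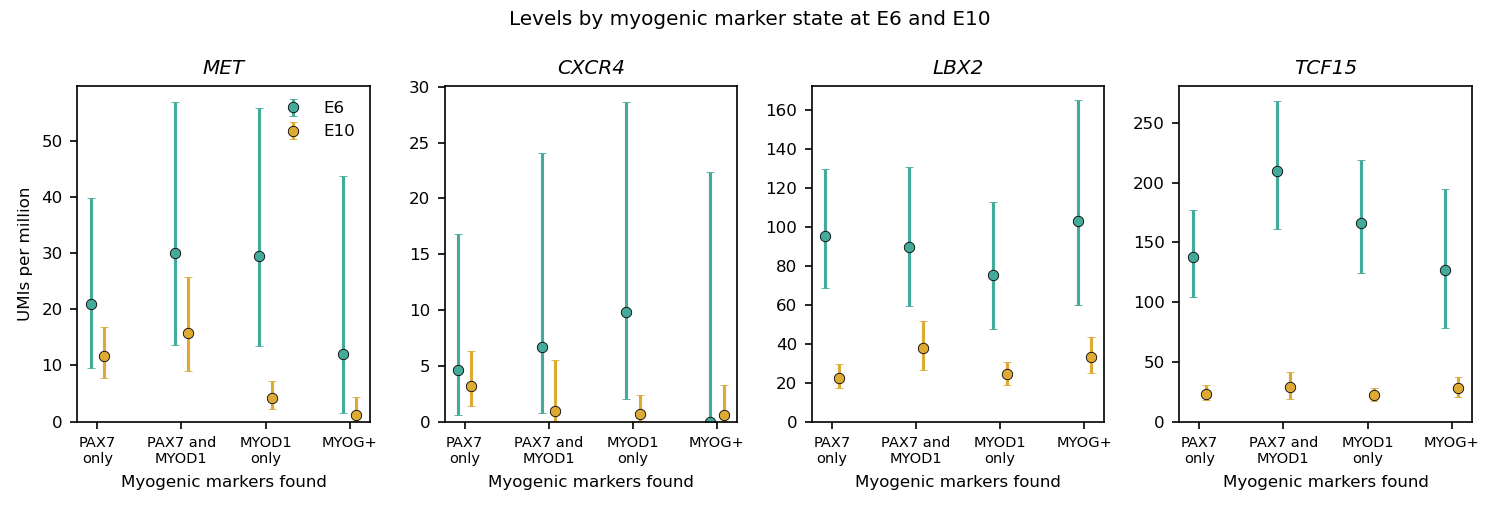
Level of MET, CXCR4, LBX2 and TCF15 (CPM, linear axis from 0) in cells with PAX7 alone, PAX7 and MYOD1, MYOD1 alone, and MYOG with or without the others, at E6 and E10, with exact 95% Poisson intervals. At E10, MET is at 11.7 CPM in cells with PAX7 alone and 1.19 CPM in MYOG+ cells, while LBX2 is at 22.6 and 33.4 CPM.

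Beside the myogenic groups, TCF15 was found in CDH5+ cells and in cells with no group marker (68.9 CPM at E4 and 19.2 CPM at E10). In CDH5+ cells it was found in 7 of 21 cells at E4 (152 CPM, 78.6 to 266), 4 of 16 at E6 (314 CPM, 144 to 596) and 41 of 175 at E10 (237 CPM, 177 to 311). PAX7+ cells were above CDH5+ cells at E4, the intervals overlapped at E6, and CDH5+ cells were above at E10 (25.5 CPM in PAX7+ cells). Of the CDH5+ cells with TCF15, none at E4 or E6 and 1 of 41 at E10 held a PAX7, MYF5, MYOD1 or MYOG UMI, and 7, 4 and 40 held a UMI of the endothelial list. The muscle list summed to 178, 105 and 155 CPM in all CDH5+ cells, against 35.5, 245 and 552 CPM in all cells. At E4 its UMIs came from DES, CDH15 and FGFR4, with the other 8 genes at 0, and its part in the TCF15 level was not tested. The median depth of E10 CDH5+ cells was 1076 UMIs, below that of PAX7+ cells, and no erythroid cell of 450 held a TCF15 UMI, which at 3 counts allows a share of cells with a UMI of up to 0.667%. In CDH5+ cells, the ratio of E10 to E4 was 1.56 with an interval that included 1 (0.820 to 3.20).

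LBX2 and CXCR4 were also found in CDH5+ cells. LBX2 had no UMI at E4 (a limit of 38.0 CPM), 9 UMIs in 5 of 16 cells at E6 (314 CPM, 144 to 596), of which 5 in 1 cell, and 7 UMIs in 7 of 175 cells at E10 (31.9 CPM, 12.8 to 65.7). None of the 5 E6 cells held a PAX7, MYF5, MYOD1 or MYOG UMI or PRRX1, and all 5 held a UMI of the endothelial list. Against PRRX1+ cells, TCF15 was past 4-fold in CDH5+ cells at E4 (log2 ratio 3.82), 1 of 6 members beside 6.03% of all genes. LBX2 (5.74) and TCF15 (4.65) were past it at E6, beside 5.72%, and CXCR4 there on 1 UMI. CXCR4 (3.77), LBX2 (2.79) and TCF15 (4.17) were past it at E10, beside 3.86%. At E10, 9 of the 175 CDH5+ cells held a myogenic UMI, and 2 of the 7 CDH5+ cells with LBX2 were among them.

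Other genes of the pathways were read in PAX7+ against PRRX1+ cells from lists. These held 15 genes of HGF and MET signalling, 12 symbols of CXCL12 and CXCR4 signalling and 19 transcription factors of precursors and somites. Of the HGF and MET list, 12 were listed in the files and 8 had at least 20 UMIs at each stage. PIK3CA alone passed 4-fold, at E4 (51.7 against 12.8 CPM, log2 ratio 2.02, 0.79 to 3.02), 1 of 8 beside 3.63% of all genes, and none passed at E6 or E10. The median log2 ratios of the list were 0.29, 0.05 and -0.56. The 12 symbols of the CXCL12 and CXCR4 list include CXCR7 and ADRBK1, other names of ACKR3 and GRK2, which were read. Of these symbols, 8 were listed and 6 read at each stage. None was at least 4-fold higher in PAX7+ cells. CXCL14, a related chemokine, was lower at E6 (5.89 against 98.4 CPM) and at E10 (22.8 against 252 CPM). ACKR3, a scavenging receptor of CXCL12, was 2.29-fold higher at E6 (74.6 against 32.6 CPM, log2 ratio 1.19, 0.65 to 1.70) and past 4-fold lower at E10 (6.52 against 59.1 CPM, log2 ratio -3.18, -3.90 to -2.54).

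Of the 19 transcription factors, 16 were listed and 13, 12 and 13 were read. At E4, 4 of 13 were at least 4-fold higher in PAX7+ cells, beside 3.63% of all genes, among them EYA1 (149 against 8.37 CPM), EYA2 (110.0 against 8.59 CPM) and EYA4, and MSX1 was lower. EYA proteins are cofactors that act upstream of the myogenic factors. At E6, 6 of 12 were higher, beside 1.47%, among them EYA1, EYA2, MEOX1 and MYF5, and MSX1 and DACH1 were lower. At E10, 4 of 13 were higher, beside 1.46%, among them EYA1, MYF5 and MSC, and MEOX2 and MSX1 were lower. The median log2 ratios were 1.37, 1.63 and 0.92. At E4 the median was 0 over the 10871 genes with at least 20 UMIs, and 0.08 over the 1343 with that many in each group. In an adhesion and guidance list of 11 listed genes, CDH15 (M-cadherin) and ITGA6 were higher at all 3 stages and CDH11 was lower at all 3. PAX3, SIX2 and TBX1 of the list were not analysed here.

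Over the 14 profiles of cell group and stage (MYOG+ cells of E4 had none), the genes with a course most like each member were given by Pearson's r of log2(CPM + 10) among 11499 genes. For MET these included PRSS12 (0.92) and CDH4 (0.90), and they were for CXCL12 the mesenchymal matrix gene DCN (0.92), EPS8 (0.90) and COL12A1 (0.89), and for HGF SYNDIG1 (0.87), HOXB4 (0.86) and ENSGALG00000035785 (0.83). For CXCR4 they were PROX1 (0.87), CTNNBIP1 (0.85) and MORN4 (0.85), for LBX2 CRCP (0.85), NOB1 (0.84) and ENSGALG00000031996 (0.83), and for TCF15 RNASET2 (0.86), SLC5A6 (0.82) and TNFSF10 (0.81). The profiles share libraries and cells, and profiles of few cells weigh as much as those of many.

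Free RNA was read in the barcodes of 1 to 100 UMIs. There, TCF15 was at 30.2, 13.9 and 24.9 CPM, CXCL12 at 27.7, 74.2 and 92.9 CPM, HGF at 17.6, 0.908 and 2.97 CPM, LBX2 at 6.29, 9.99 and 16.5 CPM, CXCR4 at 9.44, 6.66 and 4.32 CPM and MET at 5.03, 3.03 and 4.32 CPM. From haemoglobin, free RNA was estimated at 0.283% of the UMIs of PRRX1+ cells at E4 and 0.590% at E6. At E10 the estimate was 48.8%, and 5.59% without the 18 PRRX1+ cells that were themselves erythroid. At 5.59%, free RNA would give 5.20 CPM of CXCL12, 1.39 CPM of TCF15, 0.922 CPM of LBX2 and 0.242 CPM of MET. At 48.8%, it would give 45.4, 12.1, 8.04 and 2.11 CPM, where E10 PAX7+ cells were at 30.7, 25.5, 28.3 and 12.5 CPM. The CXCL12 level of E10 PAX7+ cells was below the estimate at 48.8%, which includes the 18 erythroid cells, and above that at 5.59%. Both estimates come from PRRX1+ cells, and the part of free RNA in the levels of PAX7+ cells was not tested.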

How the data were processed

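The authors deposited raw UMI counts per gene and barcode, made with Cell Ranger 3.0.2 (which aligns with STAR) on the GRCg6a chicken reference, without filter, normalisation or cell labels. The E4, E6 and E10 libraries held 22765180, 15004113 and 46497874 UMIs. Barcodes passed by their UMIs alone, which kept more cells at each stage than the study counts, and at E10 more than its methods say were loaded. No doublets were removed in the main values. Scrublet in scanpy 1.11.5 (0.8% expected per 1000 cells, or its own threshold where this marked at least 0.5%) took out 219, 144 and 690 cells as an alternative.

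A cell belonged to a group with 1 UMI of its marker, and groups could overlap. CPM was the summed UMIs of a gene per 1000000 UMIs of the group. Intervals were exact at 95%, a count of 0 was given a limit of 3 counts, and ratios that such a limit left undirected were not given. Background shares counted genes with at least 20 UMIs over both groups past 4-fold (between groups) or 2-fold (between stages). Cells were thinned to 450 UMIs with a fixed seed. At a median of 1081 UMIs, a low transcript is missed in most E10 cells that hold it. Depth differed between stages, so shares were not ordered across stages without thinning.

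The rule for named genes took the 6 members, the listed pathway genes past the fold, the 3 genes with the highest correlation to each member (at least 50 UMIs, pseudocount of 10 CPM), and per stage with at least 30 positive cells the 5 genes with the highest ratio in cells with against cells without the member (at least 50 UMIs). The members and lists were chosen with earlier results of these data known. Alternatives covered cell filters, doublets, marker minimum, overlaps, thinning, scaling, free RNA and the gene minimum. The work was done in Python 3.11.15 with scipy 1.17.1 for intervals, numpy 2.4.6, pandas 2.3.3 and, for plots, matplotlib 3.10.9. The fold rule was tried on simulated data, with changes placed only in genes above a minimum expected count in PAX7+ cells. It therefore does not cover genes with few UMIs there, such as these 6 at E4. Coordinates and sequences were not used here. Some genes that met the rule for named genes are not reported here.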

Additional observations from a re-analysis of the deposited data

How the results depend on the processing

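No paired analysis was possible because each stage has 1 library and no result comes from a test. Of 263 alternative values for the 39 log2 ratios of the 6 genes (PAX7+ to PRRX1+ cells, and between stages in PAX7+ and in PRRX1+ cells), 238 stayed within the counting interval, or kept a bound, and 25 moved. None moved under doublet removal, gene and mitochondrial limits, cells with only 1 of the 5 markers, cells without neural crest UMIs, the top 2% left out, median-of-ratios scaling or haemoglobin and mitochondrial UMIs left out. Where counts are low the interval is wide, so staying within it says little, and a ratio within it can still cross the fold. Among values outside these 263, thinning to 450 UMIs moved 58 and left 35. With groups also set from thinned UMIs, 60 moved and 24 did not. With at least 2 marker UMIs, the PAX7+ to PRRX1+ ratio became 5.93 for MET and 6.05 for TCF15 at E4, 5.44 for TCF15 and at most -1.73 for CXCL12 at E6 (below 4-fold as a bound), and 1.97 for MET and at most -1.20 for HGF at E10. With at least 2000 UMIs, it became -0.59 for HGF, -1.16 for CXCL12 and 1.63 for TCF15 at E10. Thinned to 450 UMIs, it became 4.30 for TCF15 at E4, 5.62 for LBX2 and at most -0.72 for CXCL12 at E6, and -2.50 for CXCL12 at E10. Subtraction of free RNA at 48.8% gave -3.83 for CXCR4 and 3.61 for TCF15 at E10 and no value for HGF, CXCL12 and LBX2, whose counts it exceeded. At 5.59%, without erythroid cells, a choice made after seeing the data, the ratios were -1.08, 1.07, -3.75, -1.99 and 4.59. Between stages, thinning to 450 UMIs changed PAX7+ cells to at most -0.57 for CXCR4 and to -0.16 for TCF15 from E4 to E6, and to -2.68 for LBX2 and -3.43 for TCF15 from E6 to E10. In PRRX1+ cells, it gave -1.39 for MET, -0.66 for CXCR4 (0.85 in full) and 2.22 for CXCL12 from E4 to E6, and 2.89 for MET and 1.15 for CXCR4 from E6 to E10, where 1 and 2 UMIs remained at E6. With each cell weighted equally, also chosen after seeing the data, CXCL12 rose by 2.07 from E4 to E6 in PRRX1+ cells, and the other ratios stayed within their intervals. The background moved with its rule: at 8-fold, 0.892%, 0.734% and 0.552% of genes were higher in PAX7+ than in PRRX1+ cells at E4, E6 and E10, and at 4-fold without the minimum of 20 UMIs, 4.75%, 5.72% and 2.42%. Some alternatives gave no value where a count of 0 left the direction unset. Depth limits these genes in E4 PAX7+ cells, which held 0 UMIs of HGF, 2 of CXCL12, 11 of CXCR4 and 17 of MET. At E10, doublet removal took 2.52% of cells where 21.9% were expected, so it is a weak check there.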
